A study of Mus musculus with 6 samples.

Results

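The Fc receptors for IgG and the small signalling adaptors that carry their signals were examined as a set of 7 genes. The set held the receptors Fcgr1, Fcgr3, Fcgr4 and Fcgr2b and the adaptors Fcer1g, Tyrobp and Hcst. Members were taken by symbol, with earlier results of these data known, and all 7 were found among the 19436 genes of the deposited table. Erythroid precursors of E14.5 fetal liver from C57BL/6 mice were sorted as CD71med Ter119- cells. CD71 is the receptor that brings transferrin-bound iron into the cell, and Ter119 appears on red cells as they mature. RNA was compared between wild type and -77-/-, the loss from both alleles of an enhancer upstream of Gata2, with 3 libraries each. The labels give the genotype, strain, age and gate, and do not say whether a library came from a single embryo or a pool. The p-values therefore measure the spread between these libraries, which may be technical.

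Fc gamma receptors bind the constant part of IgG. Fcgr1, Fcgr3 and Fcgr4 are activating receptors that lack a signalling motif of their own and need the Fc receptor gamma chain, encoded by Fcer1g, for stable display and for signalling. That chain carries an immunoreceptor tyrosine-based activation motif (ITAM), which Src family kinases phosphorylate so that the kinase Syk can dock. Fcgr2b is the inhibitory receptor and carries an inhibitory motif (ITIM) that recruits the inositol phosphatase encoded by Inpp5d. Tyrobp encodes DAP12, an ITAM adaptor of many myeloid and NK cell receptors. Hcst encodes DAP10, an adaptor whose motif binds phosphoinositide 3-kinase and Grb2 instead of Syk. In blood these genes are best known from monocytes, macrophages, granulocytes and NK cells.

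The 4 receptor promoters are shown, each as the 250 bases before the RefSeq start on GRCm38.p6, all on the minus strand except Fcgr4. They lie at chr3:96293970-96294219 for Fcgr1, chr1:171059404-171059653 for Fcgr3 (the first of its listed starts), chr1:171018676-171018925 for Fcgr4 and chr1:170976072-170976321 for Fcgr2b. Capitals mark matches on either strand to GAGGAA, a core of the sites bound by the myeloid factor PU.1.
Fcgr1: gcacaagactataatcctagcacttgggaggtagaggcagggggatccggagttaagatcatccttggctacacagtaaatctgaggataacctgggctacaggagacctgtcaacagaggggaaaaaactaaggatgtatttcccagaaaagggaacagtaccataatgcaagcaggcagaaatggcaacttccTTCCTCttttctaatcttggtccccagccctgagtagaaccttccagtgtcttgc
Fcgr3: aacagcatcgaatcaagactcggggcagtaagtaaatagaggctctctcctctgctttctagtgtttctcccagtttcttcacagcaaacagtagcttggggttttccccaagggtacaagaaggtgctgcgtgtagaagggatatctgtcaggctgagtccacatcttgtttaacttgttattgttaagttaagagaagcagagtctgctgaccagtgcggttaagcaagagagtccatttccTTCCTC
Fcgr4: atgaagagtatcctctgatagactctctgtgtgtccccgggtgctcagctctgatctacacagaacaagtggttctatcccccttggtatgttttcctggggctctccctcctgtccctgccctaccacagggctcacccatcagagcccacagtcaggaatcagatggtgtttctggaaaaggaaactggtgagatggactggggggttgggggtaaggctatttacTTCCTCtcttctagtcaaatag
Fcgr2b: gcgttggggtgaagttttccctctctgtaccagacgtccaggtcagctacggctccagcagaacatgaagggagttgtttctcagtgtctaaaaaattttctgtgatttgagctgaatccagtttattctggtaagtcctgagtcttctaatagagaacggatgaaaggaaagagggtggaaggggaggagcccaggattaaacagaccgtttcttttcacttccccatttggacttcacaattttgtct
GAGGAA was present in the windows of the activating receptors Fcgr1, Fcgr3 and Fcgr4, that is in 3 of the 6 members with a promoter in the table, against 23.3% of 32851 promoters. The GATA site AGATAA was in none of the 6 windows, against 9.99% of all promoters. The windows of Fcgr2b, Fcer1g and Hcst held neither motif. A match is a description of the letters and not of binding, and its relation to the size of the rise was not tested.

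Libraries held 16516338 to 20468899 recovered reads, and between 14847 and 18133 genes had a read. Values are normalized reads, the gene counts divided by a size factor per library. The labelled cell type was checked on 11 erythroid genes: Gata1, Klf1, Epor, Tfrc, Gfi1b, Zfpm1, Tal1, Hbb-b1, Alas2, Slc4a1 and Ermap. All 11 were present in wild type and all 11 were lower in -77-/-, with summed levels of 47550 to 50434 and 3616 to 8317. The Gata2 values of 128, 87.8 and 61.5 in the wild type libraries overlapped those of 74.2, 26.2 and 34.2 in -77-/- (limma adjusted p = 0.183). It lies outside the deleted element, so its level does not check the labels.

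Of the 7 genes, 6 were higher in -77-/- and none was lower, whereas 16.9% of the 15821 genes tested were called higher. The call was an adjusted p of at most 0.05 in limma, a linear model over all genes fitted to log2(value + 1). The same 6 genes had 3 -77-/- libraries all above the 3 wild type libraries, a separation seen in 25.0% of tested genes. The median log2 fold change was 3.18 for the 7 genes and 0.10 for all tested genes. All 7 passed the filter of a mean of at least 10 in either genotype, but Fcgr4 and Hcst passed through their -77-/- values alone. In sorted bulk RNA, a change in the number of cells that express a gene and a change in RNA per cell cannot be told apart.

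**Figure D1:**
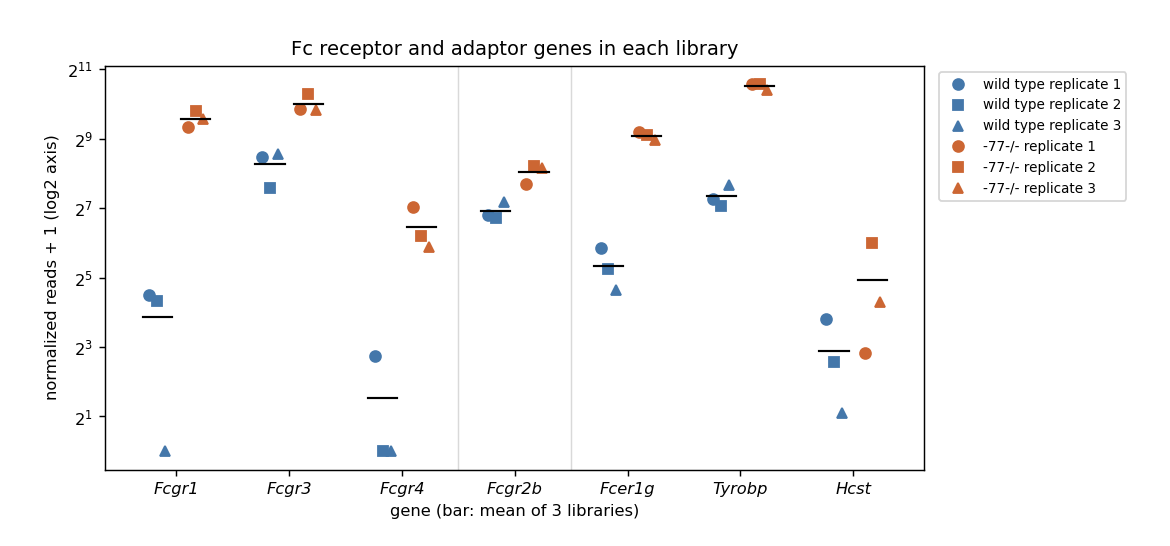
Normalized reads plus 1 (log2 axis) of the 7 genes in each library; symbols are replicates, blue is wild type, orange is -77-/- and bars are means of 3 libraries. For every gene except Hcst the orange points lie above the blue points; the points near the lower edge for Fcgr1 and Fcgr4 are wild type libraries with 0 reads.

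Among the activating receptors, Fcgr1, the high affinity receptor for IgG, went from near absence to a clear signal. The wild type libraries, replicates 1 to 3 in this order throughout, held 21.6, 19.0 and 0 normalized reads of it, and the -77-/- libraries held 643, 885 and 757. The genotypes were far apart, at means of 13.5 ± 11.8 and 762 ± 121 (SD, n = 3 here and below), a ratio of means of 56.4. The log2 fold change was 6.62 (SE 1.17, limma adjusted p = 0.00438), and it was 5.15 without wild type replicate 3, whose 0 reads allow up to 3.42 normalized reads. For Fcgr1 the authors' deposited table lists a log2 fold change of 5.81 and an adjusted p of 7.61e-06.

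Fcgr4, a receptor found in rodents that binds mouse IgG2 subclasses, was almost without reads in wild type. It had 5.63, 0 and 0 normalized reads there, from 6 reads in all, and 129, 71.9 and 58.1 in -77-/-, from 269 reads. The genotypes did not overlap, and -77-/- replicate 1 was the highest. The log2 fold change was 5.46 (SE 1.18, limma adjusted p = 0.00224). With so few wild type reads its size depended on the settings, from 3.997 with a pseudocount of 4 to 6.37 without wild type replicate 1.

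Fcgr3, the low affinity activating receptor, was already well expressed in wild type. Normalized reads were 355, 190 and 374 in wild type and 922, 1237 and 898 in -77-/-, without overlap. The mean of 1019 ± 189 in -77-/- was 3.33 times the wild type mean of 306 ± 101 (limma adjusted p = 8.16e-05, log2 fold change 1.78 with an SE of 0.26).

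Fcgr2b, the inhibitory receptor, had the smallest rise of the called genes. Its values were 110, 104 and 145 in wild type and 207, 297 and 283 in -77-/-, again without overlap. The means were 119 ± 22.1 and 263 ± 48.5, a ratio of 2.20 (log2 fold change 1.13, SE 0.32, limma adjusted p = 0.0143). Leaving out -77-/- replicate 2 or replicate 3 ended the call, at limma adjusted p = 0.0786 and 0.0752. Over all alternatives the adjusted p of Fcgr2b lay between 0.00753 and 0.0786. Fcgr2b and Fcgr3 are close paralogs. Of all 50-base windows of their GENCODE transcripts, the length of the reads, 9.58% of those of Fcgr3 occurred in Fcgr2b and 2.92% of those of Fcgr2b in Fcgr3. Reads from these stretches could be assigned to either gene, so both values carry that uncertainty. Counting all other genes, 6.95% of the Fcgr2b windows were shared. Fcgr1, Fcgr4 and the 3 adaptors shared no window with another gene.

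The balance between the receptors was set side by side within each library, as ratios of normalized reads per kilobase of exon in GENCODE M21 and without a test, since 3 against 3 libraries cannot give an exact permutation p below 0.10. The length was the union of the exons of all transcripts of a gene, 3810 bases for Fcgr2b and 1347 for Fcgr3. It affects the size of each ratio but is the same in both genotypes. Fcgr1, Fcgr3 and Fcgr4 together had 9.58, 5.44 and 7.31 times the level of Fcgr2b per kilobase in wild type. In -77-/- they had 19.02, 16.9 and 13.5 times its level. These ratios did not overlap. For Fcgr3 alone over Fcgr2b they were 5.17 to 9.14 and 8.96 to 12.6, and did overlap. Within the 3 activating receptors, Fcgr3 gave 95.1% to 100% of reads per kilobase in wild type and 66.1% to 69.7% in -77-/-. The share of Fcgr1 was 0% to 4.95% and 23.97% to 29.1%, and that of Fcgr4 was 0% to 1.62% and 4.35% to 9.93%. Fcgr3 remained the main activating receptor in all 6 libraries, and in -77-/- Fcgr1 held most of the rest.

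**Figure D2:**
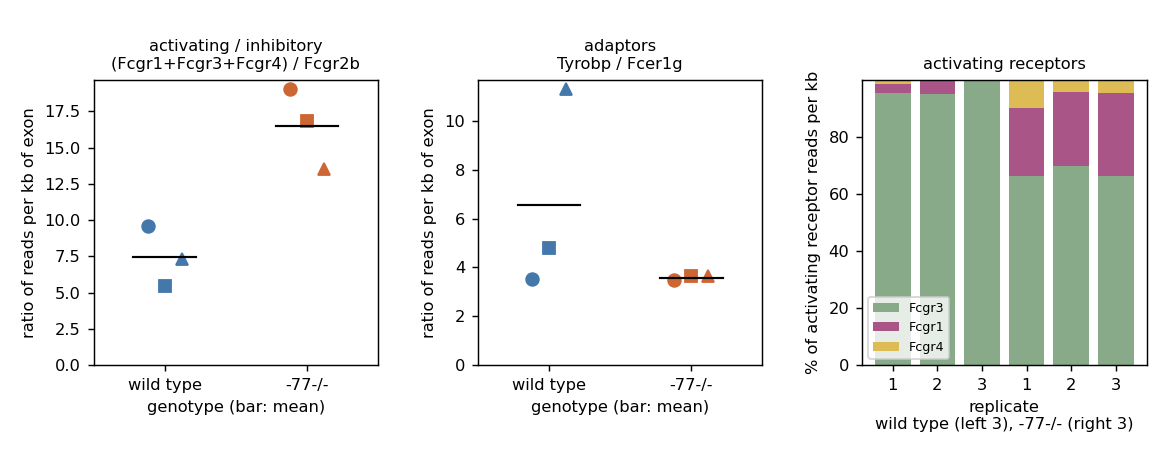
Left and middle panels, ratios of normalized reads per kilobase of exon in each library for the activating receptors over Fcgr2b and for Tyrobp over Fcer1g, with circles, squares and triangles for replicates 1, 2 and 3 and the mean as a bar; right panel, share of Fcgr3, Fcgr1 and Fcgr4 in the reads per kilobase of the 3 activating receptors for each replicate. The receptor ratio was 5.44 to 9.58 in wild type and 13.5 to 19.02 in -77-/-, and the adaptor ratio overlapped between the genotypes.

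Both ITAM adaptors rose with little spread among the -77-/- libraries. Fcer1g, the gamma chain on which the 3 activating receptors depend, had 57.2, 36.9 and 23.9 normalized reads in wild type and 585, 554 and 493 in -77-/-. No wild type library came near the -77-/- values, and the means of 39.4 ± 16.8 and 544 ± 46.4 differed 13.8-fold (log2 fold change 3.84, SE 0.39, limma adjusted p = 2.08e-06).

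Tyrobp had 153, 134 and 204 normalized reads in wild type and 1528, 1526 and 1349.8 in -77-/-. Its adjusted p was the lowest of the 7 genes (log2 fold change 3.18, SE 0.21, limma adjusted p = 3.23e-08). The ratio of Tyrobp to Fcer1g in reads per kilobase was 3.54, 4.80 and 11.3 in wild type and 3.47, 3.65 and 3.63 in -77-/-. The -77-/- ratios were nearly equal to each other and lay beside that of wild type replicate 1, so the genotypes overlapped in this ratio.

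Hcst, the adaptor without an ITAM, was low and did not pass the test. It had 13.1, 4.99 and 1.14 normalized reads in wild type and 6.10, 63.2 and 18.8 in -77-/-. The genotypes overlapped, since -77-/- replicate 1 was below wild type replicate 1. The log2 fold change was 1.88 (SE 1.27, limma adjusted p = 0.281), from 20 reads in wild type and 93 in -77-/-. The -77-/- libraries were far apart, with 6, 65 and 22 reads. In GENCODE M21 Hcst is the next protein-coding gene to Tyrobp, on the opposite strand, with the 3' ends facing each other. Tyrobp passed in all 13 alternatives and Hcst in none of the 12 that gave it a value. The difference between their changes was not tested.

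**Figure D3:**
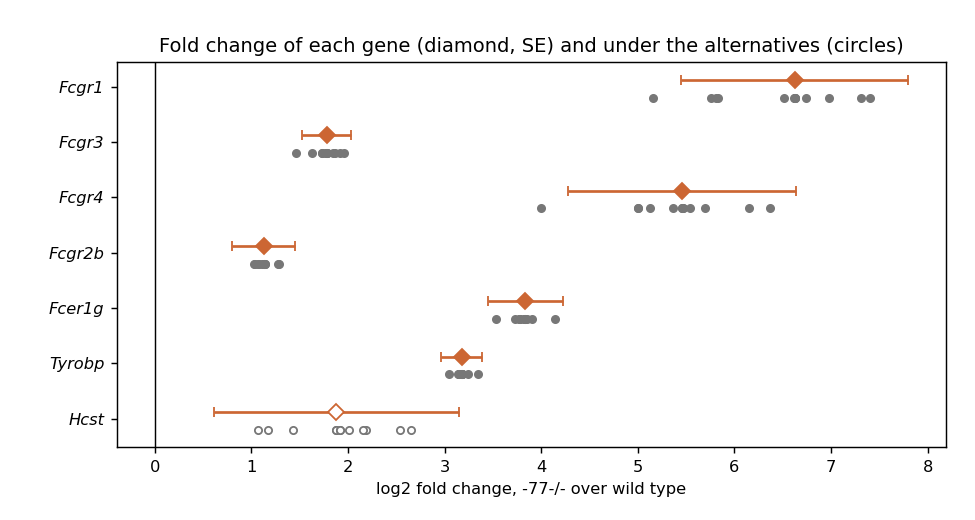
Log2 fold change of -77-/- over wild type for each gene, with diamonds and bars for the value and SE of the reported fit and circles for the alternative settings; open symbols have an adjusted p above 0.05. Fcgr1 and Fcgr4 have the largest and widest values, Fcgr2b the smallest of those called, and Hcst is open throughout.

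The order of the 7 genes was read from the same levels per kilobase of exon, and it depends on the exon lengths used. In wild type Tyrobp had 290 ± 64.4 and Fcgr3 227 ± 75.2 normalized reads per kilobase, and their libraries overlapped. Fcer1g at 52.6 ± 22.4 and Fcgr2b at 31.3 ± 5.81 per kilobase came next and also overlapped. Hcst, Fcgr1 and Fcgr4 were lowest, at 14.53, 5.22 and 1.49 per kilobase. In -77-/- the order began with Tyrobp at 2603 ± 182 normalized reads per kilobase, above every library of every other member. Fcgr3 at 756 ± 140 and Fcer1g at 727 ± 62.0 per kilobase overlapped, and Fcgr1 followed at 294 ± 46.8. Fcgr2b, Fcgr4 and Hcst lay together, at 69.0, 68.8 and 66.4 per kilobase, and did not differ beyond their spread. Fcgr1 thus stood below Fcgr2b in all 3 wild type libraries and above it in all 3 -77-/- libraries.

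Of 13 further Fc receptor genes 7 were tested, and 3 were higher and none lower (median log2 fold change 1.28; 15.2% of all genes were called lower). Fcgrt, the neonatal Fc receptor that recycles IgG inside cells, rose from 2.57 ± 3.51 to 221 ± 29.9 normalized reads (log2 fold change 6.44, SE 0.96, limma adjusted p = 1.08e-04). Fcrl1, an Fc receptor-like protein of B cells, rose from 0.625 ± 1.08 to 44.3 ± 21.7, and Trim21, a cytosolic antibody receptor, from 126 ± 74.8 to 303 ± 38.2. Fcgrt and Fcrl1 were below the minimum mean of 10 in wild type and were tested because of their -77-/- values, so they could hardly have been called lower. The call of Fcrl1 ended without -77-/- replicate 3 (limma adjusted p = 0.0592). That of Trim21 ended with edgeR (adjusted p = 0.0793) and without -77-/- replicate 1, 2 or 3 (limma adjusted p = 0.0637, 0.0969 and 0.0928). Fcer2a, the low affinity IgE receptor, had 16.8 ± 14.8 and 34.9 ± 10.8 and did not pass (limma adjusted p = 0.327). The Fcer2a genotypes overlapped. Ms4a2, the beta chain of the mast cell IgE receptor that also uses Fcer1g, had 20.3 ± 9.29 and 12.96 ± 9.62 and did not pass; it is named after its values were seen. Without -77-/- replicate 3 only 1 of the 7 was called higher.

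Of 6 other ITAM-bearing subunits 4 were tested and 2 were higher, both from the B cell receptor. Cd79b rose from 96.4 ± 77.7 to 711 ± 12.04 and Cd79a from 42.9 ± 14.2 to 170 ± 99.4. Cd79a was highest in -77-/- replicate 1, at 284 against 98.2 and 129, and without that library its call ended (limma adjusted p = 0.0979) and 1 of the 4 was higher. The T cell receptor chains Cd3d and Cd247 had log2 fold changes of 0.14 and 0.63 and did not pass.

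Receptors that signal through the 3 adaptors were higher in 9 of 13 tested cases and lower in none, with a median log2 fold change of 2.64. Of the 9, Cd300lb, Klrk1, Clec4e and Clec4n were below the minimum mean in wild type and entered the test through their -77-/- values, so the count is a description only. Clec5a, a DAP12-coupled lectin of myeloid cells, rose from 323 ± 105 to 1531 ± 283 normalized reads (log2 fold change 2.28, SE 0.24, limma adjusted p = 4.07e-06). Siglech, a DAP12-coupled lectin of plasmacytoid dendritic cells and some macrophages, rose from 74.5 ± 2.08 to 477 ± 103. Cd300lb, another DAP12 partner, rose from 2.502 ± 4.33 to 97.9 ± 45.6. Klrk1 encodes NKG2D, the receptor best known to pair with DAP10. Its reads were 2.81, 2.99 and 2.28 in wild type and 144, 160 and 170 in -77-/- (log2 fold change 5.43, SE 0.85, limma adjusted p = 1.59e-04). All 3 -77-/- libraries were therefore high for Klrk1, while Hcst had 6.10 to 63.2 in the same libraries. Trem3, Pilrb1, Cd200r3 and Clec4d were the 4 that did not pass, although Trem3 did with DESeq2 (adjusted p = 0.0418) and 2 other alternatives. Of the 9 called, Clec4n kept its call in 5 of its 12 alternatives, Cd300ld in 8 of 13 and Trem1 in 11 of 13. With edgeR 7 of the 13 were higher.

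The kinases and adaptors downstream of an ITAM were higher in 23 of 31 tested cases and lower in none, with a median log2 fold change of 1.72. Syk, the kinase that docks on phosphorylated ITAMs, had 612, 591 and 679 normalized reads in wild type and 3409, 3425 and 3166 in -77-/-. The genotypes did not overlap (log2 fold change 2.41, SE 0.13, limma adjusted p = 4.27e-09). Plcg2, the phospholipase C activated below Syk, rose from 755 ± 172 to 5335 ± 39.2, and Prkcd, a protein kinase C that relays Syk signals to Card9, from 494 ± 25.5 to 3147 ± 342. Rac2, a GTPase of blood cells that drives actin remodelling, rose from 1315 ± 136 to 4367 ± 60.3. Among the genes below the test's threshold were Btk, at 1515 ± 245 and 1878 ± 81.8, and Fyn, at 651 ± 138 and 635 ± 92.2. Btk passed without wild type replicate 3 (limma adjusted p = 0.0209). Of the 23 called higher, Bcl10 kept its call in 5 of 13 alternatives and Plcg1 in 12. The catalytic subunits of phosphoinositide 3-kinase, named after their values were seen, did not move alike. The leukocyte forms Pik3cd and Pik3cg had log2 fold changes of 1.92 and 1.75 and passed in all 13 alternatives. The widely expressed forms Pik3ca and Pik3cb had -0.11 and -0.29 and passed in none, and the difference between the pairs was not tested.

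Genes on the inhibitory side were higher in 7 of 12 tested cases and lower in none, with a median of 1.37. Inpp5d, the phosphatase recruited by Fcgr2b, had 1339, 1383 and 1438 normalized reads in wild type and 2945, 3090.5 and 2820.0 in -77-/-, without overlap (log2 fold change 1.09, SE 0.12, limma adjusted p = 3.84e-06). Ptpn6, the tyrosine phosphatase SHP-1, rose from 1049.8 ± 220.1 to 3747 ± 320.4. Ptprc and Ptprj were higher by 3.47 and 1.32 in log2 fold change; these membrane phosphatases, CD45 and CD148, also activate Src family kinases, so the list is not purely inhibitory. Csk, the kinase that restrains Src family kinases, had a log2 fold change of -0.06 and did not pass, nor did Ptpn11, Dok1, Dok2 and Dok3. Dok3 passed in 4 of the alternatives, among them DESeq2 (adjusted p = 0.0287). Inppl1, among the 7 called higher, lost its call without -77-/- replicate 2 or replicate 3 (limma adjusted p = 0.121 and 0.129).

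**Figure D4:**
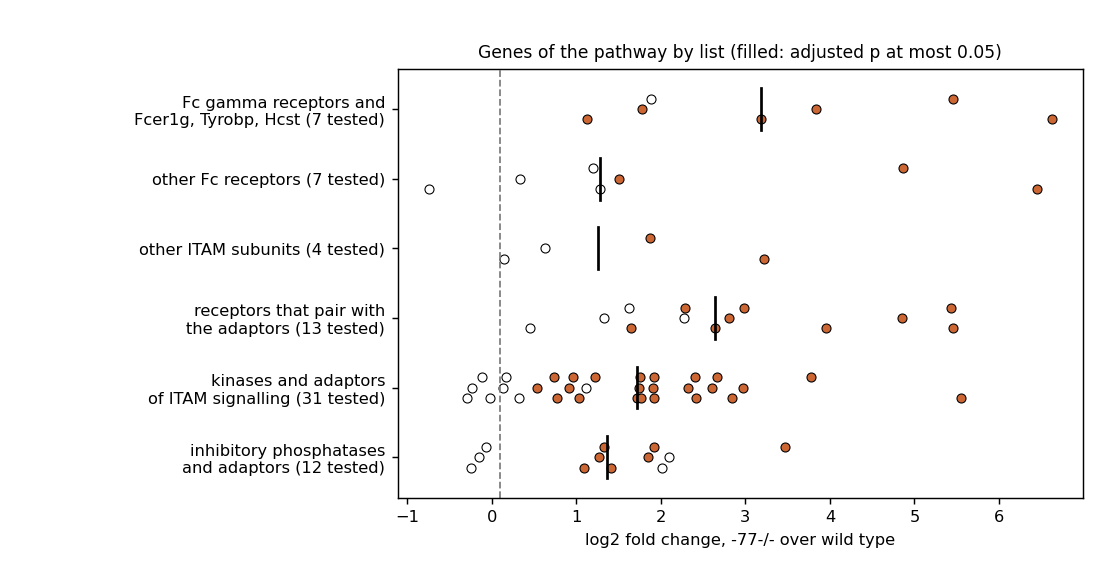
Log2 fold change of every tested gene in 6 lists; filled points had an adjusted p of at most 0.05, the black bars are list medians and the dashed line is the median of all tested genes, 0.10. No filled point lies below 0 in any of the lists, and the widest rises are in the receptor lists.

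Markers of cell types that are known to carry these genes were read as well, and the lists did not move alike. Of 11 tested monocyte and macrophage markers 8 were higher and none lower, and their summed level was 1384 to 2580 in wild type and 23766 to 34204 in -77-/-. The log2 fold changes of Mpeg1, Ccr2, Cx3cr1 and Csf1r, all called higher, were 3.87, 4.61, 3.12 and 5.01. The others called higher were Lyz2, Cd68, Ly6c2 and Adgre1, the F4/80 antigen of macrophages, which went from 33.6 ± 31.8 to 460 ± 136 and lost its call without wild type replicate 3 (limma adjusted p = 0.0751). Cd14, C1qb and Vcam1 did not pass, at log2 fold changes of 2.95, 2.06 and -1.78. C1qc was below the minimum mean, at 0 in all wild type libraries and at most 4.86 in -77-/-. Of 11 neutrophil markers 5 were higher, among them Csf3r, Mpo and Prtn3, and Camp, Ngp, S100a8 and S100a9 were lower. Mmp8, also called higher, was below the minimum mean in wild type and was tested because of its -77-/- values. The summed level of the 11 was 14280 to 24682 in wild type and 44852 to 48830 in -77-/-. Mpo alone gave 8529 to 14748.5 and 37033 to 40756 of these, the largest part in every library.

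B cell markers were higher in 5 of 8 cases, namely Ighm, Cd79b, Cd79a, Pax5 and Ebf1, and in 2 without -77-/- replicate 1, at summed levels of 841 to 1157 and 2803 to 4987. Of the NK and T cell markers, the 3 tested, Klrd1, Nkg7 and Cd247, did not pass. Cd3e, below the minimum mean, was at 0 in 3 of the 6 libraries. The summed levels of 81.8 to 199 and 122 to 197 overlapped, and Nkg7 was the largest part in every library. Klrd1 had 1.88 to 7.98 normalized reads in wild type and 18.8 to 26.4 in -77-/-, without overlap (limma adjusted p = 0.120). Of 3 tested mast cell and basophil markers, Hdc was lower and Mcpt8 and Cpa3 did not pass; the call of Hdc ended without wild type replicate 1 or -77-/- replicate 3 (limma adjusted p = 0.0559 and 0.0747). These markers stood at summed levels of 226 to 310 and 129 to 191. Fcgr1, Fcgr3, Fcgr2b and Hcst were highest in -77-/- replicate 2, as was the summed level of the monocyte and macrophage markers. Fcgr2b was close between replicates 2 and 3, at 297 and 283. Fcgr4 was highest in -77-/- replicate 1, as were the summed B cell and erythroid markers. Fcer1g and Tyrobp were close between -77-/- replicates 1 and 2, at 585 and 554 for Fcer1g and 1528 and 1526 for Tyrobp. The part of these cell types in the rise of the Fc receptor genes was not tested.

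**Figure D5:**
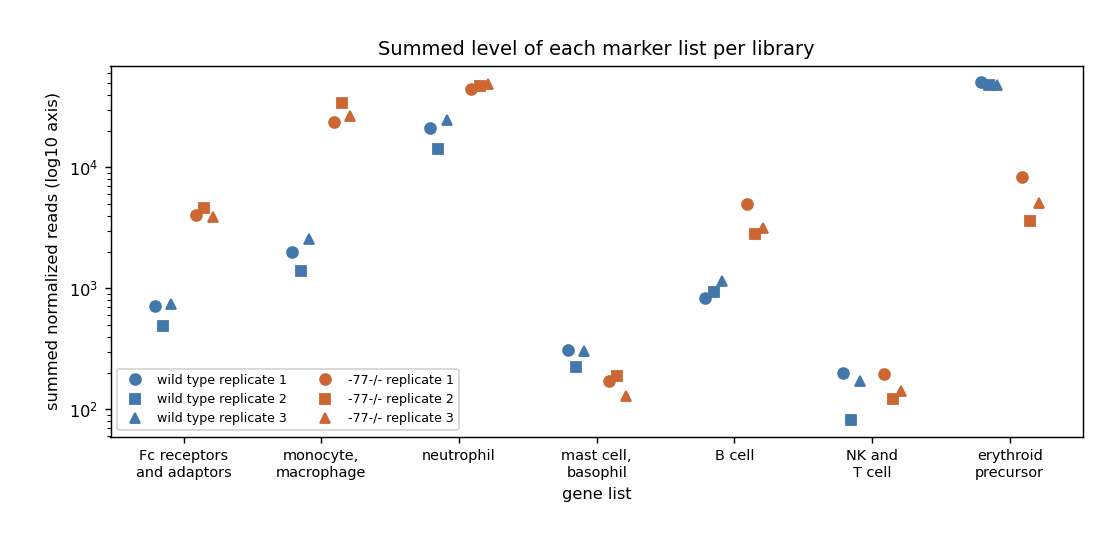
Summed normalized reads (log10 axis) of the 7 Fc receptor and adaptor genes and of 6 marker lists in each library; blue is wild type, orange is -77-/- and symbols are replicates. The monocyte and macrophage sum was 1384 to 2580 in wild type and 23766 to 34204 in -77-/-, the NK and T cell sums overlapped and the erythroid sum was lower in -77-/-.

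The genes whose profile lay nearest to each member were found from the mean absolute difference in log2(value + 1) over the 6 libraries, after subtracting each gene's wild type mean, among 10357 genes. Nearest to Tyrobp were Xdh and Tmem229b, at 0.05 and 0.10. Nearest to Fcer1g were Cmtm3 and Klf4, at 0.09 and 0.12, and nearest to Fcgr3 were Kctd1 and Sash1, both at 0.11. Fcgr2b was closest to Pxk and A230046K03Rik, both at 0.08. The profile of Fcgr1 was closest to Mnda and Gbp3, at 0.39 and 0.44, and that of Fcgr4 to Trim36 and Clec2d, at 0.22 and 0.34. Hcst had no close match, the nearest being Tnnt1 and H2-Q4 at 0.51 and 0.52. Among the members themselves the closest pair was Fcgr2b and Fcgr3, at 0.47, then Fcer1g and Tyrobp, at 0.65, and the most distant was Fcgr1 and Fcgr2b, at 3.82. These distances describe the 6 libraries, which share genotype, and carry no test.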

How the data were processed

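The submitters' processing notes name Bowtie, STAR 2.5, RSEM 1.2.31 and DESeq2 with build mm9; their roles, the annotation and the strand setting are not given in the sources used here. Per the labels' protocols, 10 ng of RNA went into each library, made with the NuGEN Ovation kit for single cells. The deposited table held, per gene, the authors' mean and 6 library values, a normalized signal: gene counts that the authors divided by a size factor. Outside 8 rows with cells moved sideways, which were left out, 100% of values were whole multiples of a step per library (tolerance 0.01 reads), which gave back reads. The authors' log2 fold changes and the deposited score columns, which hold standard errors and p-values, come from their DESeq2 comparison. If RSEM made the reads, they are rounded estimates, and a gene listed at 0 could still have had a matching read.

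As the unit is normalized, the test was limma 3.58.1 in R 4.3.3 (trend, robust) on log2(value + 1), -77-/- over wild type, for genes with a mean of at least 10 in the higher genotype, with Benjamini-Hochberg adjustment over 15821 genes. The code was tested on simulated data. Alternatives were TMM scaling, edgeR 4.0.16 and DESeq2 1.42.0 on recovered reads, pseudocounts of 0.5 and 4, no filter, a minimum of 50, and leaving out each library. A floor of 3 reads limits a count of 0, for counting error only.

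Members and lists were chosen with earlier results of these data known. Named genes were all members, the erythroid markers and, of each other list, the 4 tested genes with the lowest adjusted p and any called lower. Any other list gene was named after its values were seen, to complete a count, to give a gene below the filter or to report a call that changed with the settings. Profiles used genes with a mean of at least 100. Of 152 list entries 134 matched a row; 1 further marker is not reported here. Promoters are from RefSeq (GRCm38.p6), which held 6 of the 7 members; transcript windows and exon lengths are from GENCODE M21 (GRCm38), not the files' build, so only names, lengths, strands and sequences were taken from them.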

Additional observations from a re-analysis of the deposited data

How the results depend on the processing

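The counts of called genes, over all genes and in each list, and each member's fold change were recomputed under 13 alternatives; for the cell type marker lists these were added after seeing the data. No member's fold change reversed. The members called higher numbered 6 in the reported fit and under every alternative that kept all libraries, and 5 to 6 when 1 library was left out, Fcgr2b being the gene that was lost. Hcst fell below the stricter minimum of 50 and had no value there. Over all genes, 2681 higher and 2410 lower calls became 1984 to 2775 and 1912 to 2333 without 1 library. edgeR gave 2317 higher and 2271 lower, DESeq2 2725 and 2486. The other Fc receptors called higher ranged from 1 to 3 and the other ITAM subunits from 1 to 2 without 1 library. The paired receptors ranged from 6 to 9, the kinases and adaptors from 22 to 23 and the inhibitory side from 6 to 8. The B cell markers called higher ranged from 2 to 4 and the monocyte and macrophage markers called higher from 7 to 9. Markers called lower ranged from 0 to 1 for mast cells, from 3 to 5 for neutrophils and from 9 to 11 for erythroid precursors. The neutrophil markers called higher stayed at 5. No paired analysis was possible because the labels carry no replicate numbers. The replicate numbers used here follow the order of the samples in the series within each genotype. Low wild type reads limit the fold changes of Fcgr1, Fcgr4 and Hcst.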

Other observations

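Some list genes below the level filter had no read in any wild type library. Sirpb1a, a signal regulatory protein that pairs with DAP12, had 21.4 normalized reads in -77-/- replicate 2 and 0 in replicates 1 and 3. Oscar, an osteoclast-associated receptor that pairs with the gamma chain, had 3.05, 11.7 and 0 in -77-/- replicates 1 to 3. Tarm1, a further partner of the gamma chain, had 0, 6.81 and 7.68, and Fcrls had 0, 4.86 and 14.51. Zap70, the T cell relative of Syk, had 0, 3.89 and 0.854. A wild type count of 0 allows up to 2.81 to 3.42 normalized reads, depending on the library.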
